A study of Mus musculus with 31 samples.

Results

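MPP3 and MPP4 are multipotent progenitors of mouse bone marrow, and their transcript levels were compared on 8 arrays, 3 of MPP3 and 5 of MPP4, out of 31 arrays of 9 sorted blood cell populations. The members were taken by the population named in each array's title. All cells came from wild-type C57BL/6 mice and were enriched for cKit, sorted again, and collected as 20000 cells per sample. MPP3 cells carried cKit and Sca1 and the CD48 antigen but no lineage antigens, Flk2 or CD150, whereas MPP4 cells carried cKit, Sca1 and Flk2 and no lineage antigens. CD48 and CD150 did not define the MPP4 gate. RNA was amplified before it was labelled and hybridised to whole-transcript gene arrays. The labels call the replicates biological but give no age, sex, animal or pool. The p-values thus measure the spread between samples within the populations, which may in part be technical. The series title speaks of multipotent progenitors that favour particular lineages, and the comparison asks how the transcripts of the populations so named differ.

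As background, multipotent progenitors stand between stem cells and lineage-committed progenitors. MPP3 is known as a subset that gives mainly myeloid cells and MPP4 as one that gives mainly lymphoid cells, with Flk2, the receptor encoded by Flt3, marking the lymphoid route. Granule enzymes such as those encoded by Elane and Mpo mark early granulocyte-monocyte differentiation, and the polymerase encoded by Dntt marks early lymphoid priming.

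The deposited arrays fell into 5 sets by values that arrays shared exactly, a grouping that the labels do not name. MPP3 arrays 1 and 2 lay in set 3 with ST-HSC and MPP2, MPP4 arrays 1 to 3 lay in set 4 with CMP, and set 2 alone held both populations, with MPP3 array 3 and MPP4 arrays 4 and 5. Deposited medians were 7.797, 7.809 and 6.996 on the log2 scale in MPP3 arrays 1 to 3, against 6.91 to 7.048 in MPP4 arrays. Differences are therefore given from a quantile-normalized fit, as the mean of the 3 MPP3 arrays minus that of the 5 MPP4 arrays. A set-adjusted fit was made of all genes too, and its value is given for some of them. Where no fit is named, a difference is from the quantile-normalized fit. The set-adjusted difference rests on MPP3 array 3 minus the mean of MPP4 arrays 4 and 5. Both fits used all 31 arrays, so their SE and p-values take the spread from all 9 populations and not from these 8 arrays alone. Correlations across genes were 0.965 to 0.991 between MPP3 arrays, 0.961 to 0.993 between MPP4 arrays and 0.954 to 0.978 between the populations. A female transcript, Xist, read 5.55, 5.56 and 11.84 in MPP3 arrays 1 to 3, against 5.39, 11.41, 9.91, 11.83 and 5.63 in MPP4 arrays 1 to 5. The Y-linked transcript Eif2s3y read 9.16, 8.97 and 4.17 in the MPP3 arrays, against 9.19, 7.67, 9.41, 4.22 and 9.04 in the MPP4 arrays. MPP4 arrays 2 and 3 thus carried both transcripts, and the part of sex-linked transcripts in the other differences was not tested beyond a fit with the Eif2s3y level as a covariate.

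Flt3 encodes the Flk2 antigen on which the gates differed. Its log2 level was 9.56, 9.78 and 9.81 in MPP3 arrays 1 to 3, against 11.09, 10.71, 10.86, 11.90 and 11.77 in MPP4 arrays 1 to 5, a difference of -1.55 ± 0.21 (SE). Since the gates sorted on its product, this is a check of the labels. The Flt3 difference was not called in a fit of the 8 MPP3 and MPP4 arrays alone. Cd48, whose antigen the MPP3 gate used and the MPP4 gate did not, averaged 10.44 ± 0.14 in MPP3 and 10.01 ± 0.25 in MPP4 (SD, n = 3 and 5), and the difference was not called. Slamf1, which encodes CD150, lay low in both, with means of 5.60 in MPP3 and 5.47 in MPP4. Kit had a log2 difference of 0.18 without a call, and transcripts of the lineage antigens Cd4, Cd8a, Ly6g and Itgam were not called either.

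The quantile-normalized fit called 312 of 19938 genes at a Benjamini-Hochberg adjusted p under 0.05, 144 of them higher in MPP3 and 168 lower, or 1.56% of the genes tested. A fit of the 8 MPP3 and MPP4 arrays alone, with 6 residual degrees of freedom, called 54. The set-adjusted fit called 232 genes, or 1.16%, with 133 higher in MPP3 (0.667%) and 99 lower (0.497%). Both fits called 56 genes in the same direction, or 0.281%, with 25 higher in MPP3 (0.125%) and 31 lower (0.155%). Below, a gene is said to be higher or lower in MPP3 where both fits called it. The MPP3 and MPP4 arrays did not overlap in 48 of these 56 genes, which are 0.241% of the genes tested. Without regard to calls, they did not overlap in 7.32% of all genes, with MPP3 above in 3.33% and below in 3.99%. The set-adjusted value comes from arrays that are also in the other fit, so the values are not independent. The plot of the change in each fit has Jchain at one end of these genes and Wfdc17 at the other.

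**Figure D1:**
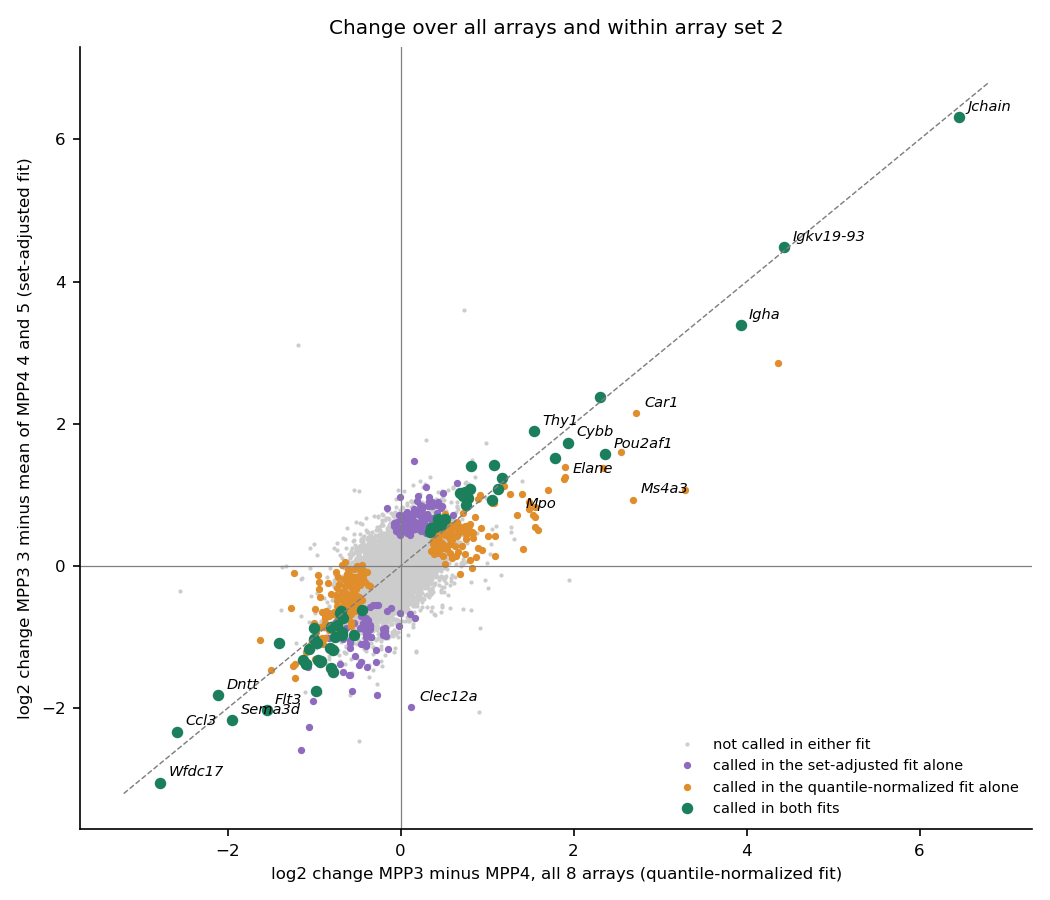
Log2 change MPP3 minus MPP4 of each gene in the quantile-normalized fit (horizontal axis) and in the set-adjusted fit (vertical axis). The horizontal values rest on all 8 MPP3 and MPP4 arrays, and the dashed line marks equal change. Genes called in both fits run from Jchain (6.46 and 6.32) to Wfdc17 (-2.78 and -3.05), some of them off the line, such as Pou2af1 (2.36 and 1.57) and Mpeg1 (-0.98 and -1.76), and Ms4a3 and Clec12a lie far below it.

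The largest differences toward MPP3 were in immunoglobulin transcripts, which plasma cells, the antibody-secreting end stage of B cells, make in bulk. Jchain, which encodes the chain that joins IgA and IgM into polymers, read 11.31, 11.53 and 10.85 in MPP3 arrays 1 to 3, against 4.59, 5.58, 4.63, 4.78 and 4.28 in MPP4 arrays 1 to 5. All MPP3 arrays lay among the brightest genes, at a mean percentile of 97.9, whereas MPP4 arrays lay at a mean percentile of 5.67, among the dimmest. The difference was 6.46 ± 0.70 (SE, limma adjusted p = 2.24e-06) and 6.32 in the set-adjusted fit (limma adjusted p = 0.0137). The values used here carry no detection call, so the size of a difference against so dim a level is uncertain. Igha, the IgA heavy chain, read 10.61, 11.51 and 10.77 in MPP3 arrays, against 6.68, 6.69, 7.01, 7.48 and 7.29 in MPP4 arrays. Ighm, the IgM heavy chain, was 1.79 ± 0.15 higher (SE), with MPP3 arrays at 9.27 to 9.62 and MPP4 arrays at 7.60 to 7.83. Igkv19-93, a kappa light chain variable segment, was 4.43 ± 0.36 higher (SE) and reached a mean percentile of 99.0 in MPP3, against 52.5 in MPP4. Some variable segments of one family are near-identical, so signal from a related segment cannot be told apart. Igkv9-120, another kappa segment and not among the listed genes, was 2.31 ± 0.31 higher (SE). Igkv10-96, also unlisted, read 9.59, 10.60 and 7.86 in MPP3 arrays, against 4.90 to 5.04 in MPP4 arrays. Its difference of 4.36 was called in the quantile-normalized fit alone and was 2.86 in the set-adjusted fit (limma adjusted p = 0.107). Of 16 immunoglobulin genes listed, 5 were measured and 4 of these were higher in both fits, and the list's median change was 3.93, against -0.01 over all genes tested. The summed linear level of the list was 7900 to 11829 in MPP3 arrays and 556 to 611 in MPP4 arrays.

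Pou2af1, a B cell coactivator that works with the octamer-binding proteins Oct1 and Oct2, was also higher in MPP3. Its level was 9.46, 9.48 and 9.59 in MPP3 arrays 1 to 3, against 6.59, 6.52, 6.60, 7.78 and 8.25 in MPP4 arrays 1 to 5. No MPP3 array overlapped an MPP4 array, and the MPP4 arrays of set 2 were the nearest. Jchain was not raised in those MPP4 arrays, at 4.78 and 4.28. The change was 2.36 ± 0.30 (SE) over all arrays and 1.57 within set 2. The promoters of Jchain and Pou2af1 are printed because both genes were higher in MPP3. These were the highest risers with a single entry in the RefSeq promoter table (build GRCm38.p6, 250 bases before to 50 after the start). Capitals mark each match to TTGCNNAA, a C/EBP-type motif, and to the E-box CANNTG, searched on both strands, and no 2 matches overlap.
Jchain: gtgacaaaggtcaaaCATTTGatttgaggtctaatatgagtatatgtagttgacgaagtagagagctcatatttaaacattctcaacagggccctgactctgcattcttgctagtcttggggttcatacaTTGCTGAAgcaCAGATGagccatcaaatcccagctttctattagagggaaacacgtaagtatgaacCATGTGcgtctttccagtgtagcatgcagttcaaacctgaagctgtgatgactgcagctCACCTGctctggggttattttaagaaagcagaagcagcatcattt
Pou2af1: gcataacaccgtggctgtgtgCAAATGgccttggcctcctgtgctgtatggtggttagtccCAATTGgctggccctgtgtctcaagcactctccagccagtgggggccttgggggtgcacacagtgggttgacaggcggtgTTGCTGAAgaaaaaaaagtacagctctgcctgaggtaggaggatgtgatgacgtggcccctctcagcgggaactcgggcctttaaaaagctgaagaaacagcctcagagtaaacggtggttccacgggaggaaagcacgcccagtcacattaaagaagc
The Jchain window is chr5:88527848-88528147 on the minus strand and the Pou2af1 window is chr9:51213440-51213739 on the plus strand. Each holds the same 8 letters, TTGCTGAA, which begin 120 bases before the start in Jchain and 109 bases before it in Pou2af1. The windows of Cybb, also higher in MPP3, and of Dntt, lower in MPP3, were searched too and held no match to TTGCNNAA. TTGCNNAA occurred in 10.8% of 32851 promoter windows and CANNTG in 72.3%. Neither window held GAGGAAGT, a PU.1-type motif found in 3.2% of windows, or TGTTTAC, a forkhead-type motif found in 3.65%. The octamer ATTTGCAT, added after the values were seen and found in 1.74% of windows, was in neither.

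Other B cell and plasma cell genes were called mostly in the quantile-normalized fit alone. Of 22 genes measured on a list of B and plasma cell genes other than immunoglobulins, 11 were called in the direction of MPP3 in the quantile-normalized fit, where 0.722% of all genes were, and only Pou2af1 was called in both fits. The list's median change was 0.62, and 0.47 in the set-adjusted fit, against medians of -0.01 and 0.05 over all genes tested. Its summed level was 5164 to 5773 in MPP3 arrays and 2920 to 3553 in MPP4 arrays, without overlap. The count was 7 without MPP3 array 1, 12 without set 2 and 5 with the set as a random block. Irf4, a factor needed for plasma cell formation, read 7.84, 7.66 and 6.71 in MPP3 arrays, against 5.85 to 5.99 in MPP4 arrays. Xbp1 and Prdm1, which encode regulators of the secretory plasma cell state, had changes of 0.72 and 0.70 in the quantile-normalized fit and 0.50 and 0.54 in the other, where neither was called. Some markers of these cells were not called. Sdc1, which encodes the plasma cell antigen CD138, read 7.73, 7.91 and 7.33 in MPP3 arrays, against 7.35 to 7.80 in MPP4 arrays. Ms4a1, which encodes the B cell antigen CD20, was dim in both, at mean percentiles of 11.4 in MPP3 and 8.27 in MPP4. The part of plasma cells among the sorted cells in these differences was not tested. In bulk RNA of this kind fewer cells of a type and less RNA per cell cannot be told apart.

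Genes of the secretory pathway were also called. Sel1l, an adaptor of the ubiquitin ligase that clears misfolded proteins from the endoplasmic reticulum, read 9.25, 9.26 and 9.60 in MPP3 arrays, against 8.42 to 8.76 in MPP4 arrays, and was 0.76 ± 0.11 higher (SE). Ell2, an elongation factor known for its part in immunoglobulin secretion, was 0.72 ± 0.13 higher (SE), and St6gal1, a Golgi sialyltransferase, 0.75 ± 0.16 (SE). Ell2 and St6gal1 were named after their values were seen, and St6gal1 lost its call without MPP3 array 3. Of 32 endoplasmic reticulum and unfolded protein response genes, 8 were called in the direction of MPP3 in the quantile-normalized fit, where 0.722% of all genes were, and only Sel1l in both. Of these 8, Xbp1, Edem1 and Derl3 are also among the B and plasma cell genes counted above, and Calr is also on the granule gene list below. Dnajb9, a co-chaperone of that compartment, went the other way and was called in the set-adjusted fit alone, at -1.01 (limma adjusted p = 0.00753). The count was 2 without MPP3 array 1 and 4 without MPP3 array 2. The main chaperone of that compartment, Hspa5, had a difference of 0.14 and was not called. Tent5c, a poly(A) polymerase that stabilises immunoglobulin transcripts, was 1.12 ± 0.17 higher (SE, limma adjusted p = 0.000323), with MPP3 arrays at 7.63, 8.06 and 7.93 and MPP4 arrays at 6.56 to 6.89.

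**Figure D2:**
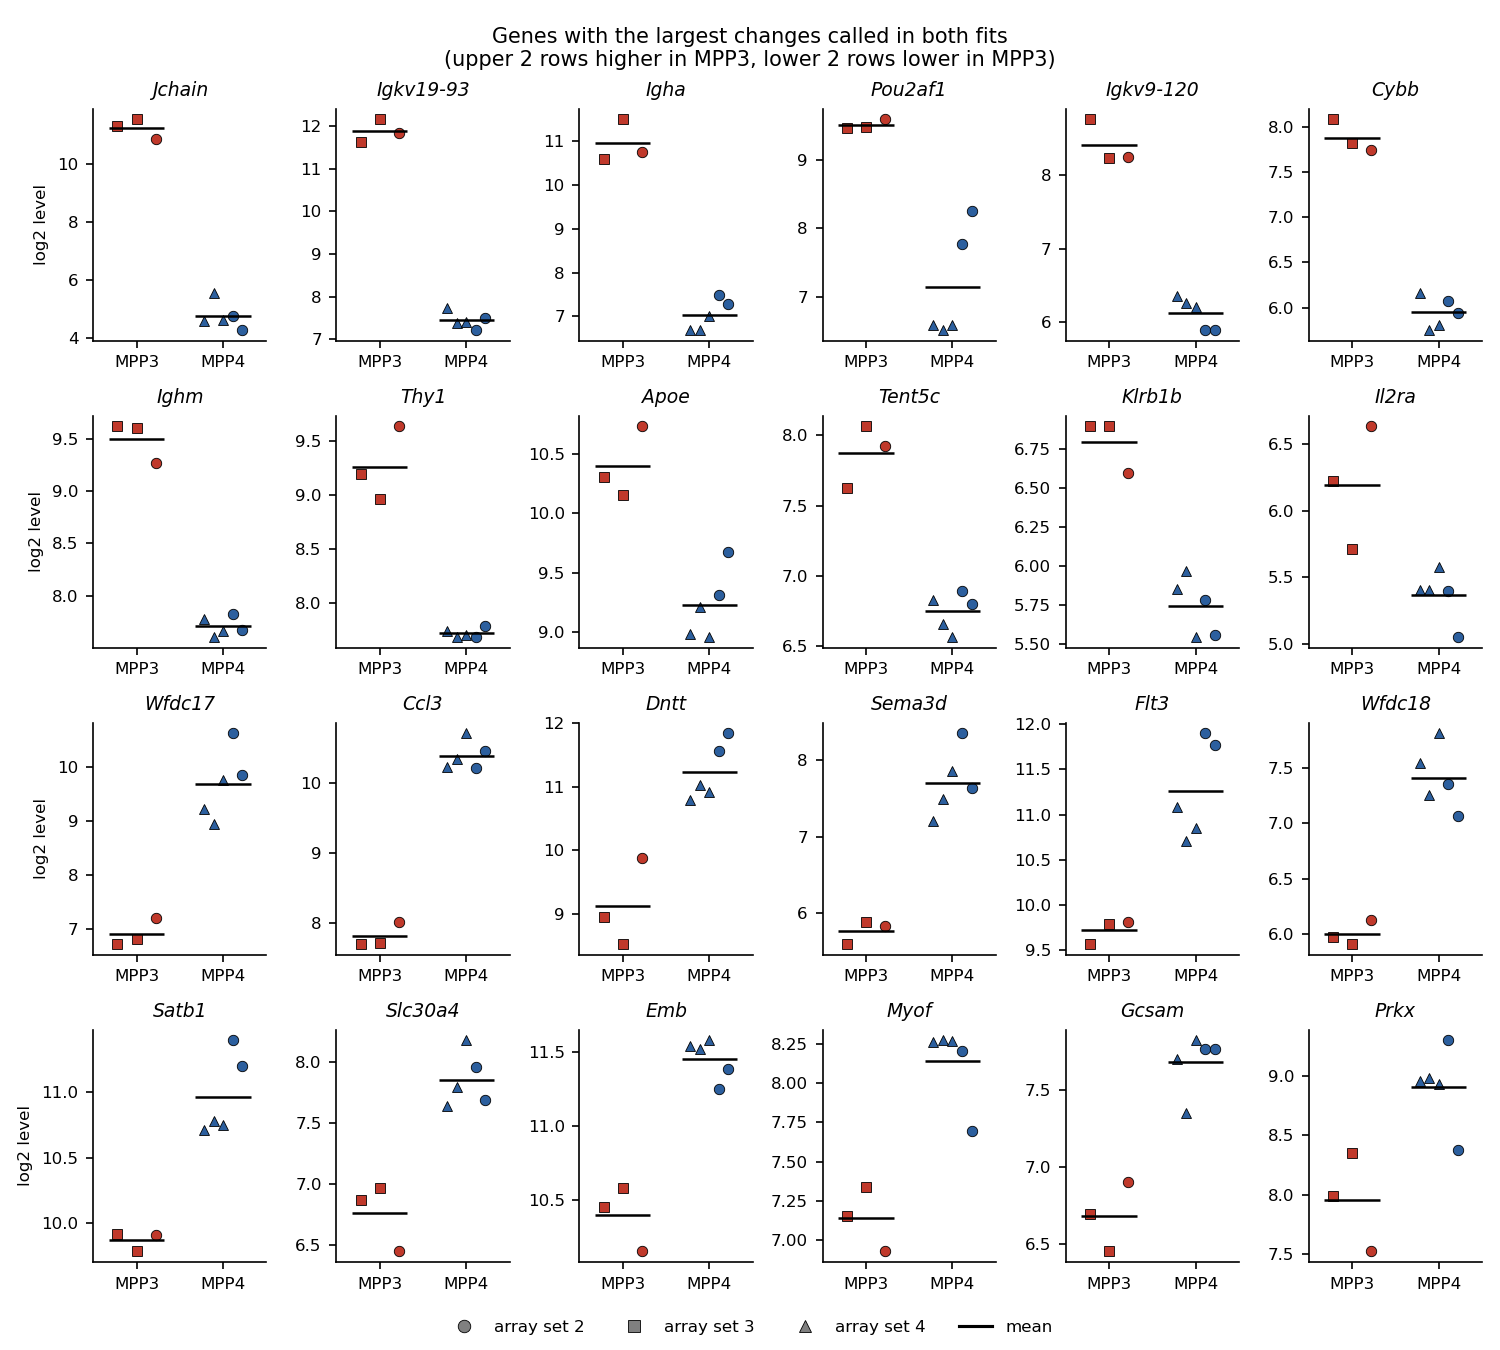
Log2 level (vertical axis) by array of the 12 genes with the largest rise and the 12 with the largest fall among genes called in both fits whose arrays do not overlap, MPP3 in red and MPP4 in blue, with symbols for the array set and bars for the mean. In each panel all 3 MPP3 arrays lie on one side of all 5 MPP4 arrays, as in Jchain (10.85 and above in MPP3, 5.58 and below in MPP4).

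Among the other genes higher in MPP3 was Cybb, which encodes the catalytic subunit of the phagocyte NADPH oxidase and lies on the X chromosome. Its level was 8.08, 7.82 and 7.74 in MPP3 arrays 1 to 3, against 6.16, 5.75, 5.80, 6.08 and 5.94 in MPP4 arrays 1 to 5. The groups were well apart and the change of 1.94 ± 0.16 (SE, limma adjusted p = 1.01e-08) was 1.73 within set 2. Other subunits of the oxidase were not called toward MPP3. Ncf1, a cytosolic subunit, had a difference of -0.88, called in the quantile-normalized fit alone, and Cyba, the membrane partner of the Cybb product, one of -0.02 without a call. Thy1, a surface glycoprotein of T cells and of some stem cells and progenitors, read 9.19, 8.96 and 9.63 in MPP3 arrays, against 7.68 to 7.78 in MPP4 arrays, a change of 1.55 ± 0.20 (SE). Il2ra, the interleukin 2 receptor alpha chain, was 0.82 ± 0.17 higher (SE) with arrays at 5.72 to 6.63 in MPP3 and 5.05 to 5.58 in MPP4, and was not called without MPP3 array 1 or without set 2. Klrb1b, a lectin-like receptor of NK cells, was 1.05 ± 0.13 higher (SE). Il2ra and Klrb1b were dim, at mean percentiles of 22.2 and 35.5 in MPP3 and 9.6 and 14 in MPP4. The size of their differences is thus uncertain. Of 21 T and NK cell genes 4 were called toward MPP3 in the quantile-normalized fit, against 0.722% of all genes, and of these only Thy1 in both. The other 3 were Gzma, a cytotoxic granule protease gene, Il2rb, the interleukin 2 receptor beta chain, and Klrd1, a receptor chain of NK cells, with differences of 0.76, 0.74 and 0.64 in that fit and of 0.38, 0.56 and 0.14 in the set-adjusted fit. Gzma, Il2rb and Klrd1 were dim too, at mean percentiles of 26.8, 36.4 and 23.2 in MPP3 and 12.8, 19.6 and 12.2 in MPP4. Cd3g and Cd3e, of the T cell receptor complex, had differences of 0.44 and -0.001 without a call. The median change of the T and NK cell list was 0.25, and 0.14 in the set-adjusted fit. Apoe, a lipid carrier that stem cells and macrophages make, read 10.31, 10.15 and 10.73 in MPP3 arrays, against 8.96 to 9.68 in MPP4 arrays.

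Genes lower in MPP3 included the lymphoid genes Dntt and Satb1, while other lymphoid genes were called toward MPP3. Dntt, the polymerase that adds untemplated bases at antigen receptor joints, read 8.96, 8.53 and 9.88 in MPP3 arrays 1 to 3, against 10.79, 11.03, 10.92, 11.56 and 11.84 in MPP4 arrays 1 to 5. Its difference was -2.11 ± 0.23 (SE, limma adjusted p = 2.33e-06) and -1.82 within set 2. Satb1, a chromatin organiser that favours lymphoid fate, read 9.92, 9.79 and 9.91 in MPP3 arrays, against 10.71, 10.77, 10.75, 11.39 and 11.19 in MPP4 arrays. It fell by 1.09 on the log2 scale, with an SE of 0.18. Dntt and Satb1 were called under each of the 23 settings tried beside the quantile-normalized fit, which include the set-adjusted fit itself and the leave-one-out fits. The recombinase genes, which cut the receptor loci, were not called. Rag1 read 7.82, 6.27 and 7.57 in MPP3 arrays, against 6.90, 7.03, 7.22, 7.17 and 8.77 in MPP4 arrays, with a difference of -0.20. Il7r, the interleukin 7 receptor, had a difference of 0.98 and was not called (limma adjusted p = 0.17). In the set-adjusted fit the Il7r difference was -0.19, of the opposite sign. Of 17 genes of early B cells and receptor rearrangement, Pou2af1 was higher and Dntt lower in both fits and the list's median change was 0.11. Cd79a, of that list, was called toward MPP3 in the quantile-normalized fit alone, at 1.56. Of 23 lymphoid receptor and surface genes, that fit called Ly6d toward MPP3 (1.27) and Flt3 and Lsp1 (-0.87) toward MPP4, against 0.722% and 0.843% of all genes. Only Flt3 was called in both fits, and the list's median change was 0.11, and -0.19 in the set-adjusted fit. Of 23 lymphoid transcription factors, Satb1 alone was called in both fits, and the quantile-normalized fit called 4 toward MPP3 and 3 toward MPP4, against 0.722% and 0.843% of all genes. Irf4, Ikzf3, Gata3 and Runx3 were called toward MPP3 and Mef2c and Tcf4 toward MPP4 in the quantile-normalized fit alone. Tox, a nuclear factor of T cell development, was called toward MPP4 in the set-adjusted fit alone, at -0.90.

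A stretch of chromosome 11 held 3 of the 12 largest falls. Ccl3, a chemokine, and Wfdc17 and Wfdc18, which encode small secreted proteins with a WAP domain, lie near each other in the RefSeq gene order, with Ccl4 between Ccl3 and Wfdc17. The promoters of Ccl3 and Wfdc17 are printed because both genes were lower in MPP3, with capitals marking matches to CANNTG.
Ccl3: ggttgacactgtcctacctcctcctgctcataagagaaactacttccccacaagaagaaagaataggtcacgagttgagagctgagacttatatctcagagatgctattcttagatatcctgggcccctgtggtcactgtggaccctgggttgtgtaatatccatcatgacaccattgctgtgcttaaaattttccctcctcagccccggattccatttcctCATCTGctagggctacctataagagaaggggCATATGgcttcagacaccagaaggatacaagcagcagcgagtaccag
Wfdc17: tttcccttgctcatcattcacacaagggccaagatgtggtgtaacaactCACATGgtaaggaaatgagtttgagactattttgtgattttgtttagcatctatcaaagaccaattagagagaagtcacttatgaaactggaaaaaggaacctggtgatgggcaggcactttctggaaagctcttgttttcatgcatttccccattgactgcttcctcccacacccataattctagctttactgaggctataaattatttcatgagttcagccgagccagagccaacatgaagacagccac
The Ccl3 window is chr11:83649329-83649628 on the minus strand and the Wfdc17 window is chr11:83703806-83704105 on the plus strand (GRCm38.p6). Neither held a match to the C/EBP, PU.1, forkhead or octamer letters given above. Ccl3 read 7.69, 7.72 and 8.01 in MPP3 arrays 1 to 3, against 10.23, 10.35, 10.71, 10.21 and 10.46 in MPP4 arrays 1 to 5, a difference of -2.59 ± 0.28 (SE, limma adjusted p = 2.24e-06). Wfdc17 read 6.71, 6.81 and 7.20 in MPP3 arrays, against 9.23, 8.95, 9.76, 10.63 and 9.86 in MPP4 arrays, a difference of -2.78 ± 0.31 (SE, limma adjusted p = 2.33e-06). Wfdc18 read 5.98, 5.91 and 6.13 in MPP3 arrays, against 7.07 to 7.81 in MPP4 arrays. For each of these genes the MPP3 arrays lay below all MPP4 arrays, and the MPP4 arrays of Wfdc17 were themselves spread (SD 0.65). Their neighbours were looked up after the values were seen. Ccl4, a chemokine closely related to Ccl3, read 7.64, 7.72 and 8.38 in MPP3 arrays, against 8.003, 8.02, 8.13, 8.62 and 8.59 in MPP4 arrays, and its difference of -0.36 was not called. Differences of 0.36 in Wfdc21, -0.43 in Ccl9, -0.35 in Ccl6 and 0.74 in Ccl5 were not called either. In the set-adjusted fit Ccl9 and Ccl6 had the opposite sign, at 0.22 and 0.14, while Wfdc21 and Ccl5 were at 0.21 and 0.84. Thus 3 of 11 measured genes in a row were lower in both fits, where 0.155% of all genes were, but the stretch was picked for these 3 genes, so nothing is read from that count. Tnf, the inflammatory cytokine, was also lower in MPP3, at 7.47, 7.55 and 7.37, against 7.999 to 8.54 in MPP4 arrays, a difference of -0.81 ± 0.13 (SE).

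Sema3d, a secreted guidance cue of the semaphorin family, was lower in MPP3. It read 5.59, 5.88 and 5.83 in MPP3 arrays 1 to 3, against 7.21, 7.49, 7.86, 8.35 and 7.64 in MPP4 arrays 1 to 5. MPP3 arrays lay at a mean percentile of 14.4, against 58.6 in MPP4, and the difference was -1.94 ± 0.16 (SE, limma adjusted p = 1.01e-08). Emb, a transmembrane glycoprotein, read 10.46, 10.58 and 10.15 in MPP3 arrays, against 11.25 to 11.58 in MPP4 arrays. Slc30a4, a zinc transporter, fell by 1.09 on the log2 scale, Gcsam, a signalling adaptor of germinal centre B cells, by 0.998, Myof, a membrane repair protein, by 0.999, and Prkx, a kinase gene of the X chromosome, by 0.96. The other 13 genes higher in MPP3 had changes of 0.34 to 1.09, and the other 19 genes lower in MPP3 of -1.13 to -0.45. Slc18a2, a vesicular monoamine transporter, was the largest of these rises and was set apart because its arrays overlapped.

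Both macroH2A histone genes were lower in MPP3, a pair named after their values were seen. Histone macroH2A is a variant of H2A with a large extra domain, found in repressed chromatin. Macroh2a1 read 11.39, 11.46 and 11.39 in MPP3 arrays, against 12.12, 12.07, 11.96, 12.15 and 12.08 in MPP4 arrays, a difference of -0.67 ± 0.09 (SE, limma adjusted p = 7.05e-05). It was among the brightest genes in both, at mean percentiles of 98.4 in MPP3 and 99.3 in MPP4. Macroh2a2 read 7.83, 7.49 and 6.55 in MPP3 arrays, against 8.86, 8.43, 9.06, 7.79 and 7.96 in MPP4 arrays. Its groups overlapped over all arrays, and in set 2 MPP3 array 3 lay below both MPP4 arrays. The difference of -1.13 ± 0.27 (SE) had a limma adjusted p of 0.0469 in the set-adjusted fit and lost its call in 9 of the 23 settings. It was not called without MPP3 array 2 or 3 or without MPP4 array 1 or 3. Nor was it called on the values as deposited, with or without the set block, or with arrays centred on their median. The 8 arrays alone and the replicate block did not call it either.

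The granule genes of early myeloid cells that were called toward MPP3 were called in the quantile-normalized fit alone. Of 22 genes on that list, 5 were called toward MPP3 over all arrays, where 0.722% of all genes were. Calr, among these 5, is also on the endoplasmic reticulum list. None of the 5 was called in the set-adjusted fit. The only call of that fit on the list was of Clec12a, a myeloid lectin, toward MPP4, where 0.497% of all genes were. In that fit limma gave 2 list members an unadjusted p under 0.05 toward MPP3 and 2 toward MPP4, against 9.46% and 5.44% of all genes. Elane, the neutrophil elastase gene, read 9.62, 8.71 and 8.24 in MPP3 arrays 1 to 3, against 6.95, 7.15, 6.67, 6.98 and 7.05 in MPP4 arrays 1 to 5. Each MPP3 array lay above each MPP4 array. The change was 1.90 ± 0.29 (SE, limma adjusted p = 0.000293) over all arrays and 1.22 within set 2 (limma adjusted p = 0.202). Mpo, the myeloperoxidase gene, read 12.74, 12.29 and 12.40 in MPP3 arrays, against 10.93, 10.91, 10.48, 11.68 and 11.67 in MPP4 arrays. Here the MPP4 arrays of set 2 were the nearest to MPP3, with a change of 1.34 over all arrays and 0.72 within set 2. Ctsg, another granule protease gene, had a change of 1.56 over all arrays and 0.84 within set 2. Ms4a3, a membrane protein of granulocyte-monocyte progenitors, read 10.28, 8.90 and 7.40 in MPP3 arrays, against 5.59 to 6.66 in MPP4 arrays, and its change of 2.68 was 0.93 within set 2. MPP3 array 3, the only one in set 2, was the lowest MPP3 array for Elane, Ctsg, Ms4a3 and Prtn3, and Prtn3, the proteinase 3 gene, was not called. The list's median change was 0.18, and 0.06 in the set-adjusted fit. The count was 2 without MPP3 array 1, 6 without MPP3 array 3 and 9 without the arrays of set 2. The summed level of the list was 23851 to 32940 in MPP3 arrays and 17069 to 21766 in MPP4 arrays.

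**Figure D3:**
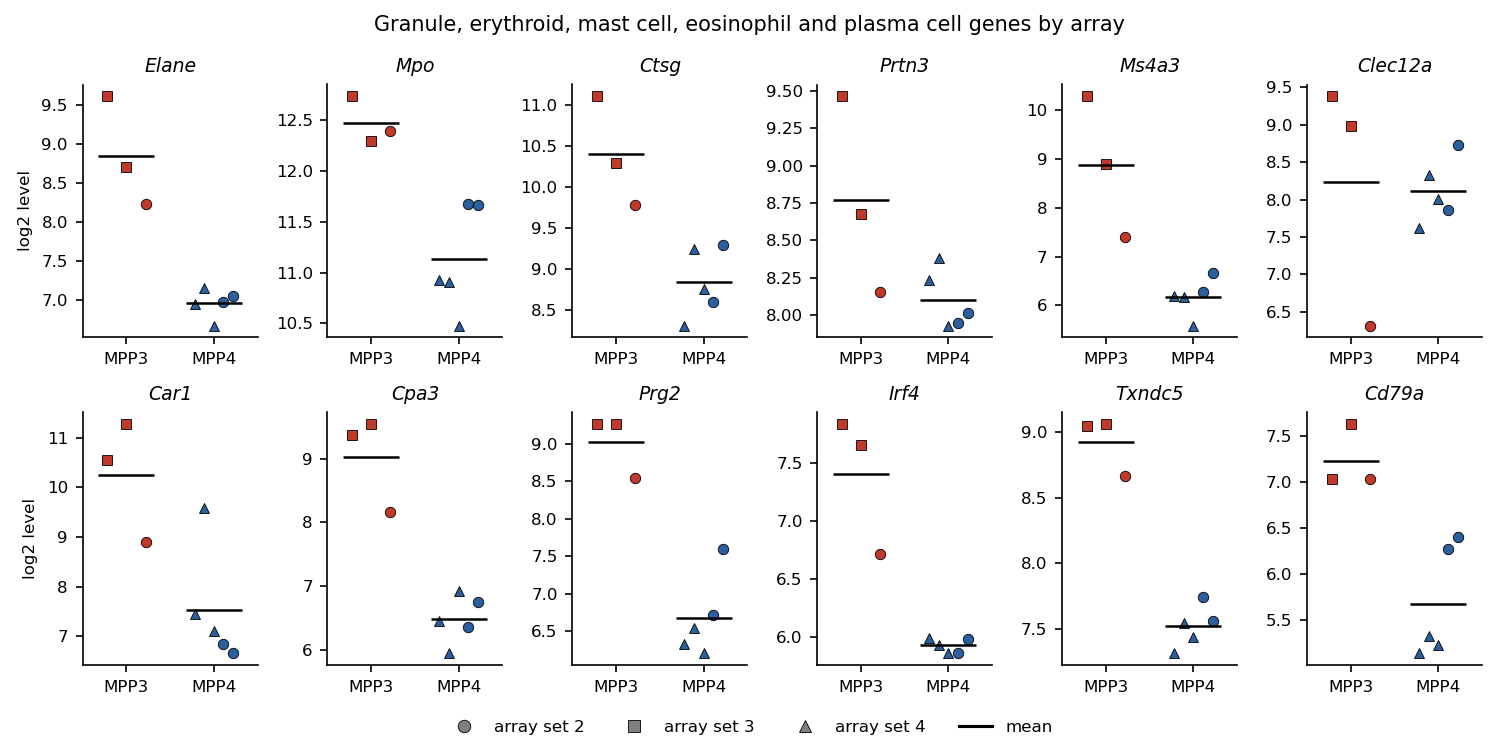
Log2 level (vertical axis) by array of granule, erythroid, mast cell, eosinophil and plasma cell genes, MPP3 in red and MPP4 in blue, with symbols for the array set and bars for the mean. MPP3 array 3 (red circle) lies below the other MPP3 arrays for Elane (8.24), Ms4a3 (7.40) and Car1 (8.90), and below all MPP4 arrays for Clec12a (6.32).

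The regulators of granulocyte-monocyte fate had no call in the quantile-normalized fit. For the 19 granulocyte-monocyte transcription factors the median difference was 0.00, and limma gave an unadjusted p under 0.05 to 1 toward MPP3 and 2 toward MPP4, against 6.4% and 8.58% of all genes. For the 20 myeloid cytokine receptor and signalling genes the median was -0.03 and that number was 0 in both directions. Cebpa, a factor needed to form granulocyte-monocyte progenitors, read 8.42, 8.75 and 9.06 in MPP3 arrays, against 8.57 to 9.49 in MPP4 arrays. Spi1, which encodes PU.1, had a difference of -0.01, Csf1r, the M-CSF receptor, one of -0.06 and Csf3r, the G-CSF receptor, one of 0.21. In the set-adjusted fit these differences were -0.33, -0.31 and -0.17, also without a call. Irf8, a factor of the monocyte and dendritic routes, was called in the set-adjusted fit alone, at -0.999, with MPP3 array 3 at 7.27 and MPP4 arrays 4 and 5 at 8.23 and 8.32. Clec12a, of the granule gene list, was called there alone too, at -1.98. It read 9.38 and 8.99 in MPP3 arrays 1 and 2 but 6.32 in MPP3 array 3, against 7.62 to 8.73 in MPP4 arrays, so MPP3 arrays lay on both sides of MPP4.

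Genes of the erythroid, mast cell and eosinophil lineages were called toward MPP3 over all arrays and not in the set-adjusted fit. Car1, an erythroid carbonic anhydrase, read 10.56, 11.28 and 8.90 in MPP3 arrays, against 7.44, 9.59, 7.10, 6.84 and 6.65 in MPP4 arrays, where array 2 overlapped the MPP3 range. Its difference was 2.72 over all arrays and 2.15 within set 2. Cpa3, a mast cell carboxypeptidase, read 9.38, 9.55 and 8.16 in MPP3 arrays, against 5.94 to 6.92 in MPP4 arrays, with a difference of 1.60 within set 2. Prg2, an eosinophil granule protein, read 9.27, 9.26 and 8.54 in MPP3 arrays, against 6.21 to 7.60 in MPP4 arrays, with a difference of 1.38 within set 2. The MPP3 and MPP4 arrays were apart for Cpa3 and Prg2. In the quantile-normalized fit 3 of 21 erythroid genes and 3 of 18 eosinophil, basophil and mast cell genes were called toward MPP3, against 0.722% of all genes, and none of either in both fits. Tal1, an erythroid and stem cell transcription factor, was called in the set-adjusted fit alone, at 0.58. The summed level of the eosinophil, basophil and mast cell list was 4610 to 5553 in MPP3 arrays and 3483 to 3788 in MPP4 arrays. Among MHC class II and dendritic cell genes 3 of 19 were called toward MPP4, against 0.843% of all genes, of which only the sort marker Flt3 was called in both fits. Of 24 monocyte and macrophage genes, Cd5l was higher by 0.40 and Mpeg1, which encodes the pore-forming protein perforin-2, lower by 0.98, in both fits. Both of those calls were lost without MPP3 array 1 or 3, and Cd5l was dim, at mean percentiles of 16.4 in MPP3 and 10.9 in MPP4.

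Several programmes had no call by limma in the quantile-normalized fit. These were the stem cell genes (24 measured, median change -0.12), the megakaryocyte and platelet genes (18, median 0.19), the mitosis genes (22, median 0.02), the interferon response genes (25, median -0.12) and the Hox genes (17, median -0.03). At an unadjusted p under 0.05, which 6.4% of all genes had toward MPP3 and 8.58% toward MPP4, the numbers toward MPP3 and toward MPP4 were 3 and 5 for stem cell genes, 5 and 0 for megakaryocyte and platelet genes, 2 and 1 for mitosis genes, 2 and 3 for interferon response genes and 0 and 2 for Hox genes. Of 27 DNA replication genes and 27 ribosome biogenesis genes, Gins3 and Pes1 alone were called, each in that fit alone. Mki67, which encodes the proliferation antigen Ki-67, had a difference of 0.34 and was not called (limma adjusted p = 0.605). Array weights called 3974 genes in all, 1476 toward MPP3 and 2498 toward MPP4. The numbers toward MPP3 and MPP4 were then 3 and 6 for stem cell genes and 6 and 0 for megakaryocyte and platelet genes. They were 3 and 2 for mitosis genes, 3 and 3 for interferon response genes and 0 and 2 for Hox genes. The absence of calls thus holds for the quantile-normalized fit and not for every setting. The summed level of the megakaryocyte and platelet list was 4401 to 4543 in MPP3 arrays and 3358 to 3895 in MPP4 arrays.

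**Figure D4:**
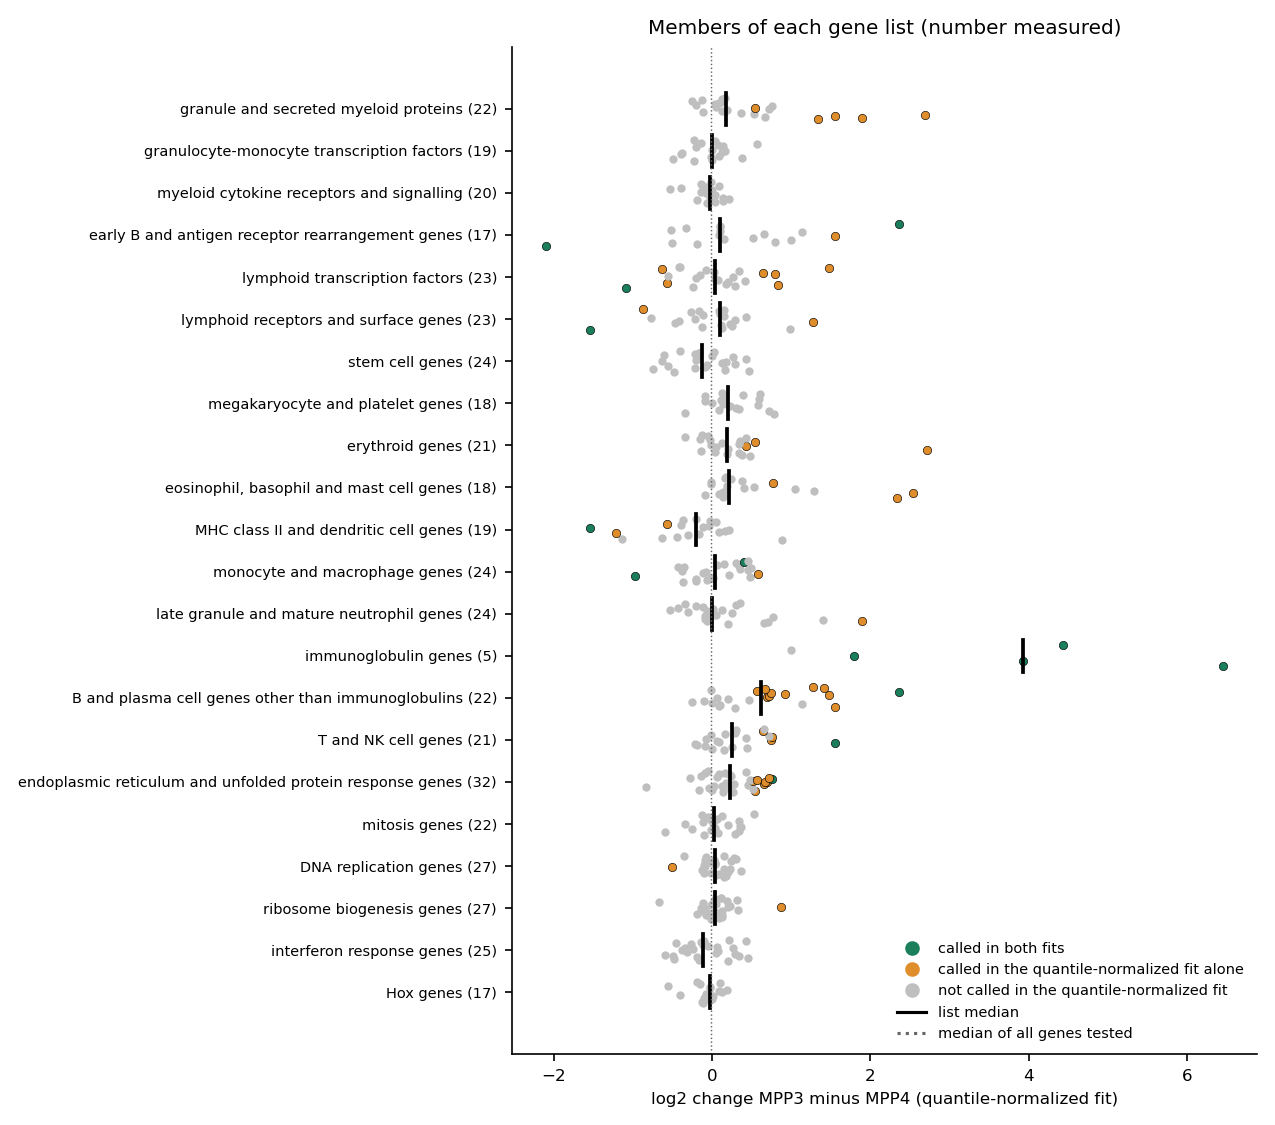
Log2 change MPP3 minus MPP4 in the quantile-normalized fit (horizontal axis) of each measured gene of 22 lists, with bars for list medians and a dotted line for the median of all genes tested (-0.01). The immunoglobulin list has its median at 3.93 and the B and plasma cell list at 0.62, while the other medians lie between -0.20 and 0.25.

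Levels in the other populations place these genes in the series. Jchain averaged 11.23 ± 0.35 in MPP3 and 4.77 ± 0.48 in MPP4 (SD), and lay between 4.64 and 5.05 on average in LT-HSC, ST-HSC, CMP and GMP. In MPP2 it spanned 5.70 to 11.19 over 3 arrays, and it was 9.18 to 10.61 in pre-granulocytes and 7.07 to 9.92 in granulocytes. Igkv19-93, at 11.63 to 12.16 in MPP3, spanned 6.71 to 9.92 in pre-granulocytes. Immunoglobulin transcripts were thus also present in other arrays, and varied widely within a population. Thy1 was 8.96 to 9.63 in MPP3 and 8.61 or less in every other array. Cybb was 7.88 ± 0.18 in MPP3 and 5.95 ± 0.18 in MPP4 (SD), 10.05 ± 0.17 in GMP and 13.03 ± 0.13 in granulocytes, so MPP3 lay between MPP4 and GMP. Elane averaged 8.86 ± 0.70 in MPP3, 6.96 ± 0.18 in MPP4 and 11.76 ± 0.34 in GMP (SD). Dntt averaged 9.12 in MPP3, 11.23 in MPP4 and 9.31 in CMP, and 5.60 to 6.13 in the other populations. MPP3 and CMP overlapped for Dntt. Sema3d was 7.21 to 8.35 in MPP4 and 6.06 or less in every other array. Ccl3 and Wfdc17 were high again in pre-granulocytes, at means of 10.32 and 10.68, and Wfdc18 was not, at 6.67. These comparisons across populations cross array sets and are given as descriptions.

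**Figure D5:**
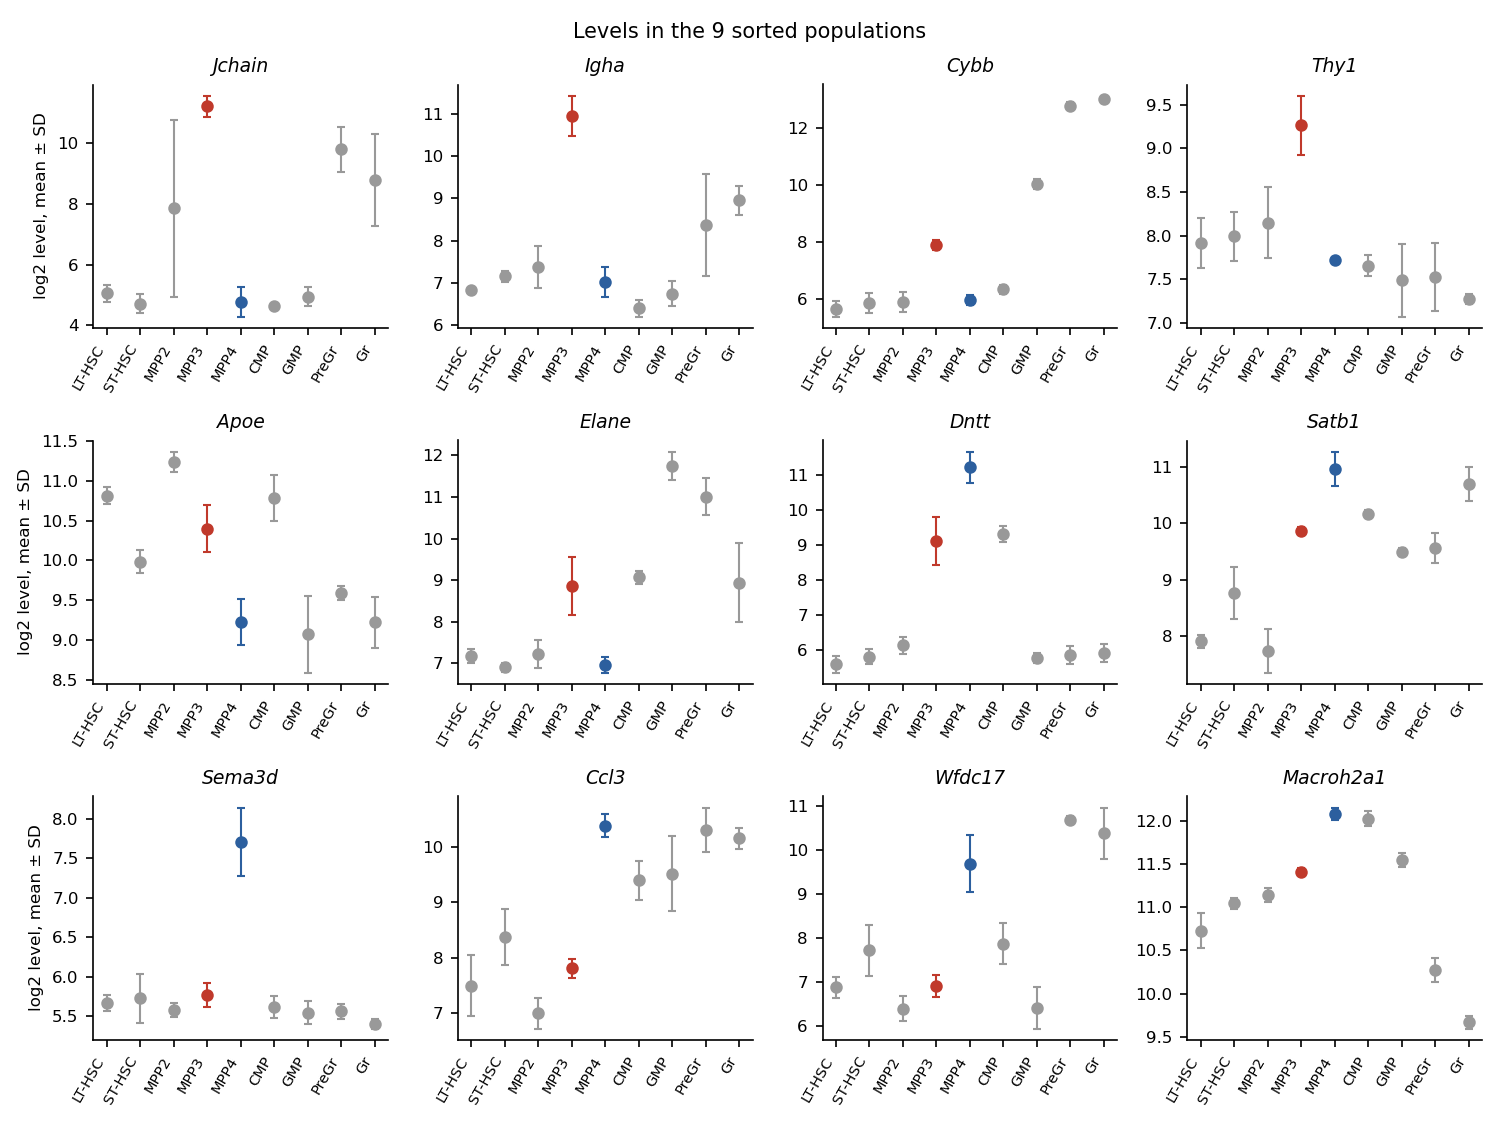
Mean log2 level with SD (vertical axis) of selected genes in the 9 sorted populations (horizontal axis), with MPP3 in red, MPP4 in blue and the others in grey, over 3 to 5 arrays each. Sema3d stands out in MPP4 (7.71) and Thy1 in MPP3 (9.26), while Cybb climbs through GMP (10.05) to granulocytes (13.03).

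The sets bear on how far these differences repeat in other arrays. Without set 2, MPP3 arrays 1 and 2 and MPP4 arrays 1 to 3 lie in separate sets, and population and set cannot be told apart. That fit called 2703 genes. Of these, 54.5% had the same direction between MPP3 array 3 and MPP4 arrays 4 and 5, against 51.6% of all genes tested, and the share was 64.7% for genes called toward MPP3 and 48.6% for those called toward MPP4. The arrays on the 2 sides of that comparison are disjoint. The median change within set 2 was 0.05 over all genes tested, a lean toward MPP3. No share of all genes by direction was computed, so the shares toward MPP3 and MPP4 cannot be compared with each other. Of the 56 genes called in both fits, 50 were called without set 2, 33 on the values as deposited and 31 with the set block on deposited values. Only 24 were called with the 8 MPP3 and MPP4 arrays alone and 22 with the replicate block, while the remaining settings gave 40 to 56. Called in the same direction under each of the 23 settings, which include the set-adjusted fit itself, were 14 genes. These 14 were Jchain, Igkv19-93, Igha, Ighm, Pou2af1, Cybb, Thy1 and Klrb1b, all higher in MPP3, and Wfdc17, Ccl3, Dntt, Sema3d, Satb1 and Emb, all lower.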

How the data were processed

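Affymetrix whole-transcript arrays of 31 sorted samples were used, 3 of MPP3 and 5 of MPP4. The authors made the deposited log2 values by RMA, per the submitters' processing notes, which give no version; the genome build is not given in the sources used here. The values range from 1.39 to 14.29. RMA already normalizes arrays together, but the deposited medians differ between arrays. The 5 sets were found here by linking arrays with 2 or more identical values on the same probe. Array medians were not used to form the sets, and those of sets 2 and 4 overlapped (6.86 to 6.996 and 6.9 to 7.048).

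All 31 arrays were quantile normalized over 35557 probes. The annotation gives a single gene for 21789 probes, several for 1621 and none for 12147, and 21698 gene identifiers matched current symbols. The brightest probe stood for each of 999 genes with several probes, which left 19938 genes. limma 3.58.1 in R 4.3.3 fitted 1 mean per population (22 residual degrees of freedom), with MPP3 minus MPP4 as contrast and Benjamini-Hochberg adjusted p under 0.05 as the call. The set-adjusted fit added set terms and had 18 residual degrees of freedom, and takes the shift of a set to be equal in all its populations. Summed levels are sums of linear values. Arrays carry no read depth, and their number limits the precision.

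Named genes are the 12 largest rises and the 12 largest falls called in both fits without overlap of arrays, list members called in both fits, sort markers and genes whose values are described. Of 497 genes on the lists, 445 were measured. Some genes are on several lists and count in each. The members and the 24 lists were chosen with earlier results of these data known; 2 genes that did not belong to their list were removed after the data were seen. Promoter windows are those of RefSeq on GRCm38.p6, and 18 of 24 largest changes had an entry. The fits were also run on simulated data, and no result given here rests on that run. The alternatives covered scaling, probes, filters, blocks, weights and leaving out arrays. Python 3.11.15 with matplotlib 3.10.9 made the figures.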

Additional observations from a re-analysis of the deposited data

Results flagged for a closer look

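Among 154 genes checked, 1 of the 5 MPP4 arrays stood apart from the others by Dixon's criterion in 12, and chance alone flags about 1 in 20 such groups. MPP4 array 5 was high for genes of early B cells, with Rag1 at 8.77 against 6.90 to 7.22 in the other MPP4 arrays, Igll1 at 8.26 against 7.04 to 7.29 and Ebf1 at 6.69 against 5.76 to 5.88. The same array was low for the stem cell gene Hlf, at 10.76 against 11.02 to 11.05, for Myof at 7.69 and for the endoplasmic reticulum gene Creld2 at 8.36. MPP4 array 4 was low for the chaperone gene Hsp90b1, at 11.72 against 12.23 to 12.33, and for Ell2, at 8.19. MPP4 array 2 was high for the erythroid gene Car1, at 9.59 against 6.65 to 7.44, and low for Gcsam, at 7.35. MPP4 array 1 was low for Igkv10-96, at 4.90 against 5.00 to 5.04, and for Cd5, at 7.13. In MPP3, with 3 arrays, no such check was made.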

How the results depend on the processing

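None of the named genes called in the quantile-normalized fit changed sign under the 23 settings tried. The numbers of genes called, higher and lower in MPP3 did depend on the setting, against 312, 144 and 168 in the quantile-normalized fit. The values as deposited gave 10731, 10721 and 10, since the median change of all genes was then 0.503. Centring arrays on the median left 94 higher, and scaling to the 75th percentile gave 163, 90 and 73. The set block left 99 lower, the set block on deposited values gave 91, 47 and 44, and the set as a random block gave 107, 44 and 63. The 8 arrays alone gave 54, 27 and 27, and array weights gave 3974, 1476 and 2498. Leaving out 1 array gave 118 to 771 calls, 58 to 268 higher and 60 to 507 lower, with 118 without MPP3 array 1, 138 without MPP3 array 2, 771 without MPP3 array 3 and 656 without MPP4 array 4. Alternatives chosen after seeing the data were leaving out set 2 (2703, 995 and 1708) and the Eif2s3y level as a covariate (465 in all, 271 lower), and with that covariate all 56 genes called in both fits were called again.

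The replicate block, over numbers 1 to 3 of each population, gave 148, 55 and 93 calls on 2 residual degrees of freedom. Same-numbered arrays had residual correlations of 0.13, 0.269 and -0.432, so the numbers were not taken to pair the samples. With 3 MPP3 arrays, and 1 of them in the only set that holds both populations, small differences could not be resolved within a set.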
